A study of Mus musculus with 15 samples.

Results

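Genes that mark microglia or belong to the complement and lipid programmes of these cells were followed across single-nucleus RNA libraries of the dorsal hippocampal formation (dHF) of female mice. They were C1qa, C1qb, C1qc, C3, Cx3cr1, P2ry12, Tmem119, Trem2, Itgam and Apoe, listed by name, and they make 10 of the 32285 genes counted in every library. All 10 were counted in all 15 libraries. The question was in which nuclei these genes were found, and whether their levels in microglia differed with reproductive experience (RE) or with stress during it.

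Each of the 15 libraries came from 1 adult C57BL/6J female, and the region is labelled dHpc. The NP group (6 mice) were age-matched virgins, the control RE group (4 mice, labelled ControlPP) had bred, given birth, nursed and weaned a litter, and the stress RE group (5 mice, labelled StressPP) had done so with daily separation from the pups and limited nesting material after birth. The dams were studied after weaning, so that nursing and pup contact had ended in both RE groups. The labels give 3 batches, and batch 1 held 2 NP mice and 1 stress RE mouse but no control RE mouse. The methods describe batches that each held every group, so what the labelled batches stand for is uncertain. The dHF was taken as tissue punches, so each library also held nuclei of neighbouring tissue such as the choroid plexus and thalamus.

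Microglia are the resident macrophages of the brain, and border macrophages are their relatives along vessels, meninges and choroid plexus. The C1qa, C1qb and C1qc genes encode the chains of C1q, which starts the classical complement pathway, C3 is its central component, and Itgam encodes the alpha chain of complement receptor 3, with which microglia recognise C3 fragments on synapses and debris. CX3CR1 is the receptor of neuronal fractalkine, P2RY12 senses nucleotides and guides microglial processes, TMEM119 is a surface protein of resting microglia, and TREM2 binds lipids and apolipoprotein E, which astrocytes are known to secrete as the main lipid carrier of the brain.

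The libraries held 40602582 to 96211264 unique molecular identifiers (UMIs, 1 per captured RNA molecule) in 5789 to 12738 barcodes each, and 123901 nuclei were kept. Pairs of libraries shared 0.104% to 0.461% of the barcodes of the smaller one. Nuclei were clustered without the 10 genes, and classes were named from marker genes that did not include them. The microglia made 4805 nuclei, with 170 to 425 nuclei and 486986 to 830757 UMIs per mouse. All 14 of their markers were detected, among them Csf1r at 1038 CPM (UMIs of the gene relative to all UMIs of the class, on the usual scale, and the unit of every level here), while the border macrophage markers Mrc1 and F13a1 were at 3.94 and 0.673 CPM. Another of the 8 border macrophage markers, Stab1, was at 197 CPM in microglia and 2040 in border macrophages. The border macrophages made 170 nuclei, with Mrc1 at 3647 and F13a1 at 4173 CPM. A further 154 nuclei passed for microglia and for other leukocytes, were led by Cd74, Ptprc and H2-Eb1, and are called mixed leukocytes with no cell type name. Microglial nuclei also held RNA of other classes: all 7 genes of a neuron list were detected in them, with a summed level of 2151 to 6741 CPM in NP (median 5368), 2828 to 5524 in control RE (median 4727) and a lower 1652 to 5339 CPM in stress RE (median 2944). The 6 astrocyte genes summed to 411 to 697 CPM and the 6 oligodendrocyte genes to 306 to 806 CPM per mouse. Of 6 border macrophage genes 5 were detected, with Cbr2 at 0, and they summed to 1.20 to 8.94 CPM. The part of this RNA in the results below was not tested.

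The proximal promoters of Trem2 and Itgam are printed because these genes and C1qc were the only ones, of the 8 genes with a RefSeq entry here (GRCm38.p6; not C1qa or Tmem119), that held GAGGAAG on either strand in the 250 bases before the start. GAGGAAG is the core of sites bound by PU.1, the transcription factor of the macrophage lineage. The letters are on the strand of each gene and the match is in capitals (CTTCCTC where it lies on the opposite strand). The C1qc stretch is not printed, since the RefSeq start it was taken from lies inside the GENCODE model of the gene, so that part of it is in the first exon of that model. The Trem2 stretch is chr17:48346151-48346400 on the plus strand and the Itgam stretch chr7:128062390-128062639 on the plus strand. The first base of the match lay 194 (C1qc), 41 (Trem2) and 84 (Itgam) bases before the RefSeq start.
Trem2: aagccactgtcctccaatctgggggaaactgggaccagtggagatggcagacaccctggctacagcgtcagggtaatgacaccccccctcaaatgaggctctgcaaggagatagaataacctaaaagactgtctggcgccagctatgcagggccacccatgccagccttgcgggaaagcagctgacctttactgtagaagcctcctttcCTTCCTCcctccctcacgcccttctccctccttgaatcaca
Itgam: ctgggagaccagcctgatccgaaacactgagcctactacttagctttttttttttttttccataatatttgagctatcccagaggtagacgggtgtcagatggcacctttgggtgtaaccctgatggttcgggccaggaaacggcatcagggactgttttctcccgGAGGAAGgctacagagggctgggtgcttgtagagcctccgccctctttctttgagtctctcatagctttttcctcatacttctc

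The same letters stood in 3486 of 32851 promoters of that length (10.61%). The composite motif that PU.1 binds together with an interferon regulatory factor was in 0 of the 8 genes' promoters and in 2.301% of all. A match describes these letters only.

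The C1q genes were read mostly from microglia and, at like levels, from border macrophages. They lie side by side on the minus strand of chromosome 4 (C1qa at 136895917-136898803, C1qb at 136880129-136886187, C1qc at 136889804-136893065, GRCm38). The pooled level of C1qa was 396 CPM in microglia and 495 in border macrophages, that of C1qb 339 and 453, and that of C1qc 306 and 447. In the 10 mice with enough nuclei of both classes, C1qa was higher in border macrophages in 9, and C1qb and C1qc in 7 each, with overlapping ranges. Mixed leukocytes held less, at 117, 149 and 91.8 CPM.

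Microglia were 3.88% of the nuclei but held 73.2% of all C1qa, 73.2% of C1qb and 73.7% of C1qc UMIs. Over the 21 classes outside the leukocytes, the level was 0.324% of the microglial one for C1qa, 0.316% for C1qb and 0.304% for C1qc. C1qa had at least 1 UMI in 51.6% of microglial nuclei, whose median depth was 2053 UMIs. Oligodendrocytes, which should lack the gene and served as background, had one in 0.837% of nuclei at a median depth of 2493 UMIs. Thinned to 1000 UMIs per nucleus, with 130 microglial nuclei too shallow, the shares were 31.7% and 0.364%. Outside leukocytes, pooled C1qa was highest in endothelial cells, at 7.44 CPM, and vascular leptomeningeal cells, at 5.56 CPM. Oligodendrocytes were at 3.15 CPM, and every other class outside leukocytes was lower. Whether the low levels of the C1q genes outside leukocytes were background or expression was not tested. All 3 chains together were found in 14.6% of microglial nuclei and none of them in 18.5%.

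The split of C1q UMIs among the chains was close in microglia, border macrophages and dentate granule neurons, held less C1qc in oligodendrocytes and varied in other classes. It was not tested. C1qa, C1qb and C1qc made 38.1%, 32.6% and 29.4% of them in microglia and 35.5%, 32.5% and 32.05% in border macrophages. In dentate granule neurons, where the level was far lower, they made 37.4%, 33.4% and 29.1% of 772 UMIs. In oligodendrocytes they made 41.2%, 34.1% and 24.8% of 622 UMIs. Astrocytes had 44.4%, 28.5% and 27.2% of 239 UMIs and GABAergic neurons 31.9%, 28.5% and 39.6% of 144 UMIs. Thalamic or habenular neurons, with 37.8%, 32.9% and 29.3% of 222 UMIs, were close to microglia.

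C3 was nearly absent from microglia, with 2 UMIs in 4805 nuclei (0.0416% of nuclei, 95% Wilson interval 0.0114% to 0.152%). The whole series held 79 UMIs of it. Ependymal cells, the ciliated lining of the ventricles, held 10 of them, a level of 18.7 CPM in 8 of 157 nuclei (5.10%). In the 7 mice with enough nuclei of both, ependymal cells were above border macrophages in 2, with overlapping ranges. Nuclei of clusters left without a name held 23 UMIs (0.230 CPM). Oligodendrocytes and thalamic or habenular neurons held 10 each (0.123 and 0.0855 CPM). The genes with the pattern most like that of C3 over 54 clusters were Ccdc153, Acap1 and Tctex1d4, with Pearson correlations of log2(CPM + 1) between 0.775 and 0.777, given as a description. Group differences in C3 were not detectable at this depth, and the gene did not pass the filter on low counts in any class tested.

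Itgam (chromosome 7, 128062640-128118491, plus strand) was the member with the largest share of its UMIs in microglia, 86.9%. Its level was 475 CPM in microglia, 142 in border macrophages and 190 in mixed leukocytes. Outside the leukocytes it was 0.136% of the microglial level, and 59.2% of microglial nuclei had a UMI of it. Over clusters its pattern was most like those of Vav1, Gm40645 and Cd33 (r = 0.988, 0.986 and 0.986).

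The surface receptors of resting microglia were higher in microglia than in border macrophages. Cx3cr1 was at 1139 CPM in microglia, 287 in border macrophages and 272 in mixed leukocytes. P2ry12 was at 1064, 443 and 234 CPM, and was higher in microglia in 10 of 10 mice, with ranges that did not overlap. Tmem119 was at 193 CPM in microglia against 10.0 in border macrophages, where 5 of 170 nuclei had a UMI. It was at 22.2 CPM in mixed leukocytes and at 11.3 in vascular leptomeningeal cells, where 3.40% of nuclei had a UMI. This order of classes is a description and was not tested.

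Both Cx3cr1 and P2ry12 were also counted outside the leukocytes more than the other markers. Microglia held 57.2% of Cx3cr1 and 27.8% of P2ry12 UMIs, against 81.5% for Tmem119 and 79.2% for Trem2. Dentate granule neurons alone held 29.5% of P2ry12 UMIs, at 37.7 CPM. The level over the 21 other classes was 2.81% of the microglial level for P2ry12 and 0.799% for Cx3cr1, while for the remaining microglial genes it lay between 0.136% and 0.324%.

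The P2ry12 gene (chromosome 3, 59216272-59262871, minus strand) lies within Med12l, a Mediator subunit gene on the other strand. Across the 21 classes outside leukocytes the levels of both moved together (Spearman's rho = 0.768, Pearson's r = 0.805, a description over classes that share libraries). Granule neurons had 317 CPM of Med12l with 37.7 of P2ry12, and oligodendrocytes had 63.03 with 7.39. Whether the counting used strand is not given in the sources used here. The origin of the P2ry12 counts in these classes was not tested. In microglia P2ry12 was higher than in any other class, at 1064 CPM.

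For Cx3cr1 the classes that stood out were the choroid plexus epithelium, with 165 CPM and a UMI in 57.4% of nuclei (16.2% thinned), and the ependymal cells, with 129 CPM. Its annotated gene model (chromosome 9, 119901616-120069879, minus strand) spans 168264 bases and overlaps, among others, Ttc21a on the other strand. Ttc21a, a gene of cilia, was at 79.8 CPM in choroid plexus, 408 in ependymal cells and 0.481 in microglia. Across the 21 classes outside leukocytes it had Spearman's rho = 0.285 and Pearson's r = 0.723 with Cx3cr1. Gorasp1, which overlaps on the same strand, had rho = 0.070 and r = 0.746. For the other overlapping genes compared, r lay between -0.399 (Wdr48) and 0.631 (Xirp1). The methods name the reference behind the counts, but its gene models were not used here and the positions are of another GENCODE release. The origin of these Cx3cr1 counts was not tested.

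**Figure D1:**
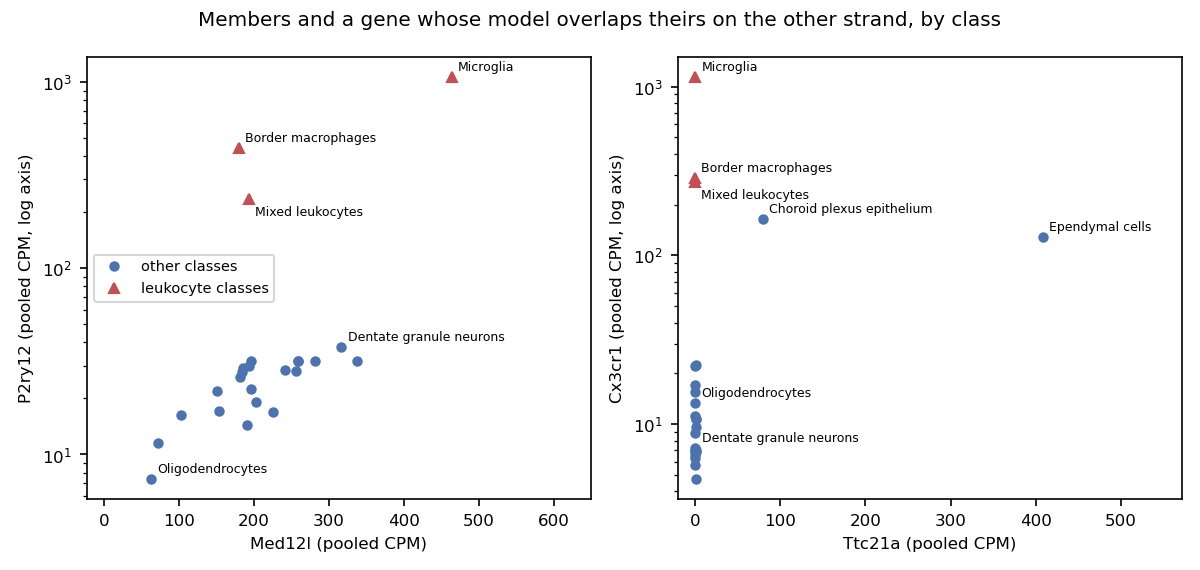
Pooled CPM (log axis) of P2ry12 against Med12l (left) and of Cx3cr1 against Ttc21a (right), 1 point per class, triangles for leukocyte classes. Outside leukocytes P2ry12 is higher in classes with more Med12l, up to 37.7 CPM in dentate granule neurons, and the choroid plexus and ependymal cells stand apart for Cx3cr1.

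Trem2 (chromosome 17, 48346401-48354147, plus strand) was at 204 CPM in microglia and 104 in border macrophages, and was higher in microglia in 9 of 10 mice. A UMI was found in 33.6% of microglial nuclei (18.7% thinned) against 0.358% of oligodendrocytes (0.174% thinned). Its pattern over clusters was most like those of Siglech, Fgd2 and Csf1r (r = 0.989, 0.988 and 0.986). Tmem119 (chromosome 5, 113793729-113800516, minus strand) was most like Selplg, Crybb1 and Csf1r (r = 0.974, 0.970 and 0.966). C1qa was most like Csf1r, C1qb and Cd300c2 (r = 0.987, 0.986 and 0.982). P2ry12 was most like Hpgds (r = 0.967) and Cx3cr1 most like Zfp710 (r = 0.954).

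Apoe (chromosome 7, 19696109-19699188, minus strand) had the opposite distribution. Border macrophages had by far the highest level, 6012 CPM, with a UMI in 98.8% of nuclei. By pooled CPM they were followed by mixed leukocytes (1725), astrocytes (1364), ependymal cells (1069), vascular leptomeningeal cells (552) and endothelial cells (452). In the 8 mice with enough nuclei of both, mixed leukocytes were above astrocytes in 4, with overlapping ranges. Microglia, at 145 CPM, were below oligodendrocytes at 211, and neuron classes lay between 10.0 and 55.7 CPM. Astrocytes held 48.9% of all Apoe UMIs, oligodendrocytes 17.7%, border macrophages 3.11% and microglia 1.56%. Its pattern over clusters was most like those of Cd63, Ftl1 and Sdc4 (r = 0.863, 0.854 and 0.842).

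Within microglia Apoe was uneven. A UMI was found in 19.1% of nuclei, but 45 nuclei (0.937%) with 5 UMIs or more, a threshold chosen after the values were seen, held 393 of the 1511 UMIs (26.0%). NP mouse 35 had 15 of these nuclei, and its level was 335 CPM with them and 166 CPM without them. In stress RE mouse 75 the level was 357 CPM with 5 such nuclei and 257 CPM without. In 3 mice no nucleus reached 5 UMIs.

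The microglial subclusters differed little in the homeostatic genes. Over the 10 subclusters of microglia, pooled P2ry12 ranged from 962 to 1247 CPM and Itgam from 427 to 543 CPM. Apoe ranged from 81.8 to 255 CPM and C1qc from 185 to 408 CPM. The subclusters also differed in depth. C1qc was highest in the one with a median of 1687 UMIs and lowest in one with 2354.5 UMIs. The deepest, with a median of 2462 UMIs, was at 304 CPM. The part of depth in these ranges was not tested. The subclusters were drawn from the same cells without these genes and are not tested against each other.

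No group difference passed the test in microglia for any of the 9 members tested, and C3 was too low to test. Of 9547 genes tested by edgeR's quasi-likelihood test at a Benjamini-Hochberg adjusted p of 0.05, 0 were called in control RE against NP, in stress RE against control RE and in stress RE against NP (percent called 0 in each). DESeq2 also called 0 of them in microglia. At an unadjusted p of 0.05, the counts were 216, 316 and 522 genes. Groups did not overlap for 0.482%, 1.31% and 0.398% of all genes tested in these contrasts, and for none of the 9 members tested.

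The C1q genes had the highest mean in stress RE mice, with wide spread in each group. C1qa in NP mice had a lowest, median and highest level of 227, 369 and 691 CPM. In control RE mice it was 484 (mouse 66), 345 (mouse 72), 145 (mouse 87) and 317 CPM (mouse 88). In stress RE mice it was 489 (mouse 43), 585 (mouse 70), 665 (mouse 75), 383 (mouse 77) and 213 CPM (mouse 90). The groups overlapped throughout, and the low control RE mouse 87 and the low stress RE mouse 90 lay below every NP mouse. The group means were 413 ± 172 (SD, n = 6), 323 ± 139 (n = 4) and 467 ± 177 CPM (n = 5). Those of C1qb were 333 ± 126, 290 ± 91.7 and 409 ± 176 CPM, and those of C1qc 301 ± 126, 267 ± 79.5 and 356 ± 113 CPM, in the same order of groups.

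For stress RE against control RE the log2 fold change of C1qa was 0.50 (SE 0.34, edgeR, adjusted p = 0.994), that of C1qb 0.46 (SE 0.32) and that of C1qc 0.38 (SE 0.28). For control RE against NP they were -0.34, -0.18 and -0.15, and for stress RE against NP 0.16, 0.28 and 0.23. Single mice moved these values: for C1qa in control RE against NP they ran from -0.60 without control RE mouse 66 to -0.10 without control RE mouse 87, with -0.14 without NP mouse 37 and -0.12 with batch as a term. For C1qb in the same contrast they ran from -0.42 without mouse 66 to -0.05 without NP mouse 37. With batch as a term the C1qb value turned positive. The C1qc value in this contrast also changed sign on leaving out single mice. For C1qa in stress RE against control RE the values ran from 0.26 without mouse 87 to 0.76 without mouse 66. The intervals of 2 SE to either side all included 0, and for C1qa in stress RE against control RE ran from -0.17 to 1.18.

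The C1q differences were not alike in the batches. In batch 3 (2 mice against 2), the log2 ratio of means for C1qa in stress RE over control RE was 0.88, whereas in batch 2 it was -0.15. In control RE over NP it was 0.34 in batch 2 and -0.67 in batch 3. For stress RE over NP the ratios were 0.30 in batch 1 (1 mouse against 2), 0.19 in batch 2 and 0.21 in batch 3.

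Itgam had the narrowest range between mice, 1.38-fold from lowest to highest. In NP mice it was 409, 435 and 530 CPM (lowest, median, highest). In control RE mice it was 447 (mouse 66), 489 (mouse 72), 525 (mouse 87) and 404 CPM (mouse 88). In stress RE mice it was 556 (mouse 43), 546 (mouse 70), 541 (mouse 75), 519 (mouse 77) and 463 CPM (mouse 90). Stress RE mice lay high in the range, but NP mouse 37 reached 530 CPM and control RE mouse 87 reached 525 CPM, above stress RE mouse 90. The log2 fold change in stress RE against NP was 0.21 (SE 0.09), with an unadjusted p of 0.0309 and an adjusted p of 0.871 by edgeR, and the log2 ratios within batches 1, 2 and 3 were 0.30, 0.24 and 0.18.

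**Figure D2:**
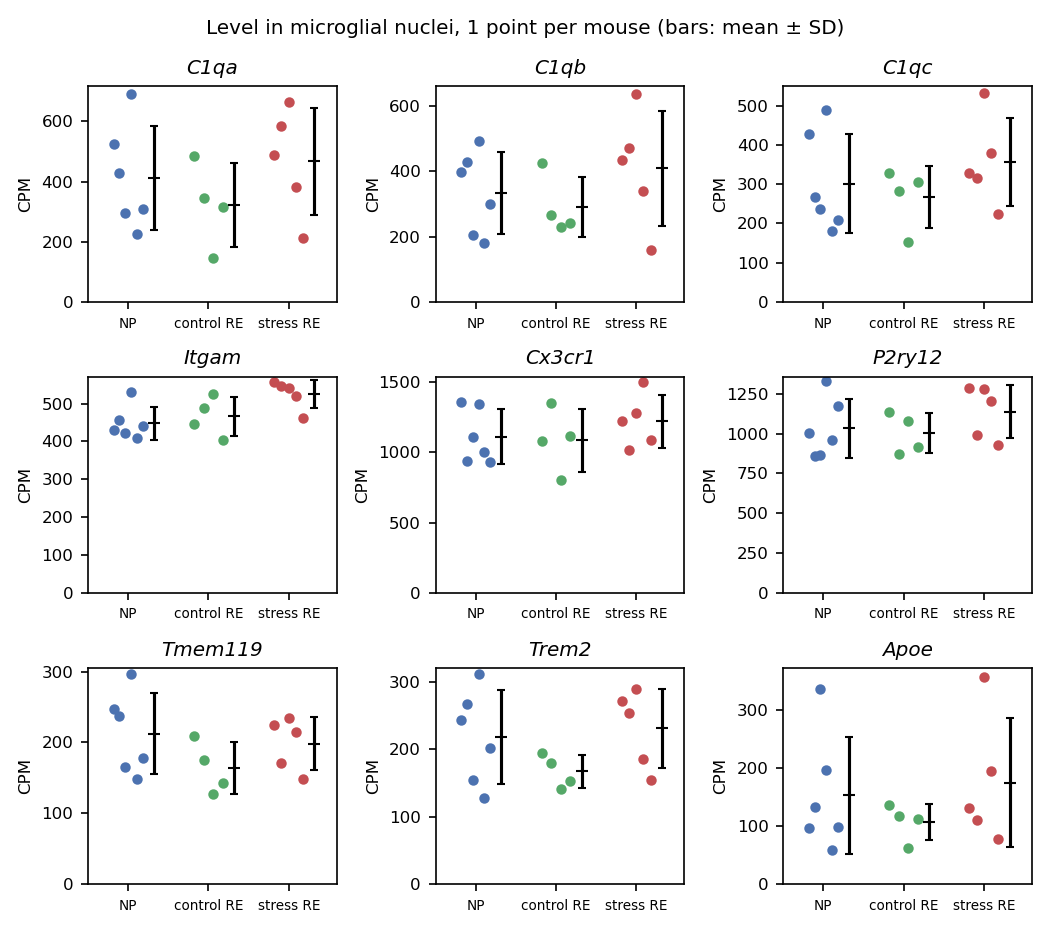
Level (CPM) of 9 genes in microglial nuclei of each mouse by group, with the group mean and SD as bars. Groups overlap for every gene; Itgam is the most even, between 404 and 556 CPM, and Apoe the most spread, between 58.0 and 357 CPM.

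The homeostatic receptors Cx3cr1 and P2ry12 showed small differences. Cx3cr1 had group means of 1114 ± 194 (NP), 1089 ± 224 (control RE) and 1222 ± 190 CPM (stress RE, SD), and P2ry12 of 1033 ± 186, 1003 ± 127 and 1138 ± 168 CPM. Their log2 fold changes lay between -0.03 and 0.16 in the 3 contrasts. Tmem119 had means of 212 ± 57.3, 164 ± 36.3 and 198 ± 37.4 CPM, and in control RE against NP its log2 fold change was -0.36 (SE 0.18, edgeR, unadjusted p = 0.0668, adjusted p = 1.00).

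Trem2 was lowest, on average, in control RE mice. In NP mice it was 128, 223 and 312 CPM (lowest, median, highest). In control RE mice it was 194 (mouse 66), 180 (mouse 72), 141 (mouse 87) and 153 CPM (mouse 88). In stress RE mice it was 271 (mouse 43), 255 (mouse 70), 290 (mouse 75), 186 (mouse 77) and 154 CPM (mouse 90). Stress RE mice 43, 70 and 75 lay above every control RE mouse, and mice 77 and 90 lay within the control RE range. The log2 fold change was 0.44 (SE 0.22) in stress RE against control RE, with an unadjusted p of 0.0622 and an adjusted p of 0.994 by edgeR, and -0.37 (SE 0.21) in control RE against NP, or -0.20 with batch as a term. Within batches the stress RE over control RE log2 ratio was 0.03 in batch 2 and 0.74 in batch 3.

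Apoe in microglia was 58.0, 115 and 335 CPM in NP mice (lowest, median, highest). In control RE mice it was 137 (mouse 66), 116 (mouse 72), 61.9 (mouse 87) and 111 CPM (mouse 88). In stress RE mice it was 131 (mouse 43), 111 (mouse 70), 357 (mouse 75), 195 (mouse 77) and 76.9 CPM (mouse 90). The log2 fold change in stress RE against control RE was 0.67 with an SE of 0.44 (edgeR, adjusted p = 0.994), and 0.28 without mouse 75. Within batches the log2 ratio of means was 0.26 in batch 2 and 1.30 in batch 3. In control RE against NP the log2 fold change was -0.51 (SE 0.43, edgeR, adjusted p = 1.00), but -0.10 without NP mouse 35 and -0.31 without control RE mouse 87. In astrocytes, whose 9432 nuclei held far more Apoe, the log2 fold changes were -0.26 in control RE against NP, 0.35 in stress RE against control RE and 0.09 in stress RE against NP. Of 12871 genes tested in astrocytes, edgeR called 0 in each of the 3 contrasts (percent called 0), with 290, 370 and 520 at an unadjusted p of 0.05, while DESeq2 called 0, 11 and 0. Groups did not overlap for 0.614%, 1.31% and 0.194% of these genes, and overlapped for each of the 4 members tested.

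**Figure D3:**
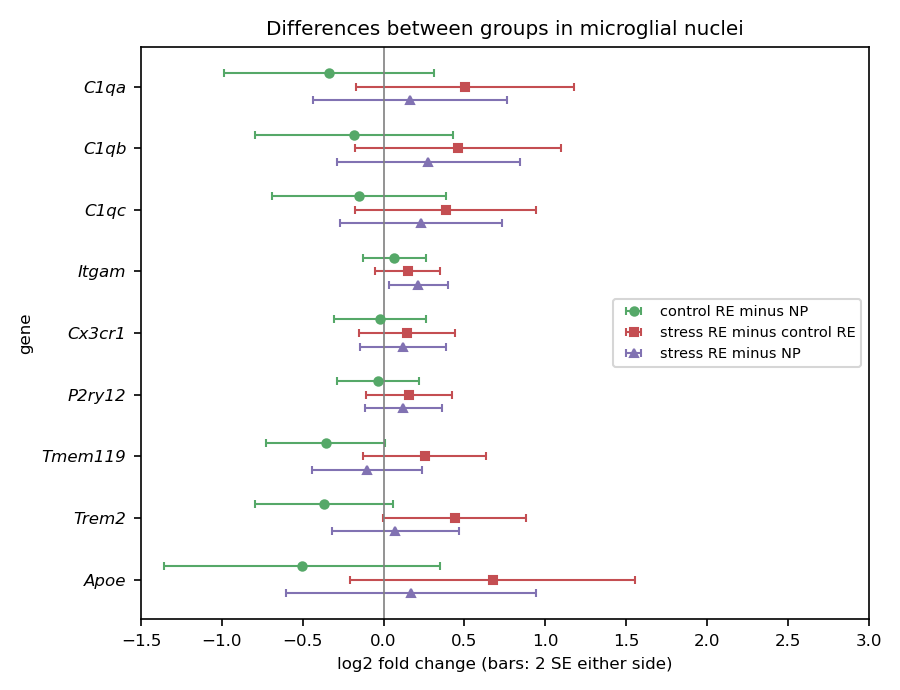
Log2 fold change of 9 genes in microglial nuclei for the 3 contrasts, with bars of 2 SE to either side. All bars cross 0 except Itgam in stress RE minus NP, from 0.03 to 0.40, whose adjusted p was 0.871.

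The ratio of Apoe in microglia to Apoe in astrocytes, on the log2 scale, averaged -3.41 ± 0.83 (SD, NP), -3.43 ± 0.19 (control RE) and -3.28 ± 0.34 (stress RE). Exact permutation tests of its group differences gave two-sided p = 0.905, 0.524 and 0.745 for control RE against NP, stress RE against control RE and stress RE against NP. The share of nuclei that were microglia averaged 3.97% (NP), 3.89% (control RE) and 3.75% (stress RE), and exact permutation p-values were 0.743, 0.714 and 0.506. Border macrophages made 0.168%, 0.112% and 0.125% (exact permutation p = 0.0857, 0.968 and 0.329). Adjusted over these 9 tests, p-values lay between 0.771 and 0.968. Within batches 2 and 3 the border macrophage differences were -0.0799 and -0.0631 percentage points in control RE minus NP. They were 0.0724 and -0.0374 in stress RE minus control RE, and -0.00744 and -0.100 in stress RE minus NP. The values within batches were not tested.

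No group difference passed the test in border macrophages. A minimum of 3 mice per group with at least 10 of these nuclei left control RE (3 mice) against NP (5 mice). Of 1319 genes tested by edgeR, 0 were called (percent called 0), and 47 had an unadjusted p under 0.05. The groups did not overlap for 3.64% of all genes tested and for none of the 6 members tested (C1qa, C1qb, C1qc, Cx3cr1, P2ry12 and Apoe). Apoe was 4782, 6750 and 8116 CPM in NP mice (lowest, median, highest), and 7836, 1981 and 6644 CPM in control RE mice 66, 87 and 88, of which mouse 87 was far below the rest. The log2 fold change was -0.23 (SE 0.37) for Apoe and -0.48 (SE 0.43) for C1qa. Stress RE mice 75 and 90 had 10044 and 4368 CPM of Apoe.

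C3, Tmem119, Trem2 and Itgam did not pass the filter on low counts there. Itgam was 85.5, 84.9 and 120 CPM in control RE mice 66, 87 and 88, with 3 UMIs in each, and 141 to 226 CPM in NP mice, with 4 to 11 UMIs. Stress RE mice 75 and 90 had 137 and 120 CPM (2 and 9 UMIs). The ranges of control RE and of stress RE lay below that of NP without overlap. In these contrasts ranges did not overlap, in either direction, for 3.64% and 7.35% of the 1319 genes that pass the filter. For the 14611 genes kept without the filter, the shares were 2.11% and 4.53%. In that fit, added after the data were seen, the log2 fold change of Itgam was -0.94 (SE 0.60, edgeR, adjusted p = 0.874) in control RE against NP and -0.50 (SE 0.62, edgeR, adjusted p = 0.922) in stress RE against NP. Of the 14611 genes 0 were called in both contrasts (percent called 0), with 379 and 315 at an unadjusted p under 0.05. With counts this low, a difference in Itgam was not detectable.

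The 2 stress RE mice with enough border macrophages were compared in contrasts also added after the data were seen. Of the 1319 genes, edgeR called 0 against control RE and 0 against NP (percent called 0 in each), with 37 and 30 at an unadjusted p under 0.05. With so few mice the groups did not overlap for 18.5% and 7.35% of all genes. Of the 6 members that passed the filter, Cx3cr1 was the one without overlap in either contrast. It was 68.3 CPM in stress RE mouse 75 (1 UMI) and 79.9 CPM in mouse 90 (6 UMIs), against 342, 141 and 560 CPM in control RE mice 66, 87 and 88 and 115 to 458 CPM in NP mice. The log2 fold change was -2.10 (SE 0.73, edgeR, unadjusted p = 0.00869, adjusted p = 1.00) against control RE and -1.81 (SE 0.68, edgeR, unadjusted p = 0.0145, adjusted p = 0.998) against NP. The other 3 stress RE mice, with 6 border macrophages each, had 694 (mouse 43), 253 (mouse 70) and 436 CPM (mouse 77), and were not low.

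No other gene of these programmes passed the test in microglia. The median log2 fold change of all genes tested was 0.01, -0.00 and 0.01 in the 3 contrasts. Of 23 other homeostatic microglial genes, all were tested and 0 passed in each contrast, with medians of -0.05 in control RE against NP, 0.15 in stress RE against control RE and 0.11 in stress RE against NP. In stress RE against control RE, 20 of the 23 fitted values were above 0. Olfml3, a secreted glycoprotein of microglia, was the one with the smallest p, at 0.56 (SE 0.19, edgeR, unadjusted p = 0.00796, adjusted p = 0.994).

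Of 22 genes of Trem2 signalling and the disease-associated microglial state, 16 were tested and 0 passed. Their medians were -0.04, 0.42 and 0.21, and 15 of 16 fitted values were above 0 in stress RE against control RE. In the same contrast 0 of 6 astrocyte genes (median -0.24) and 2 of 7 neuron genes (median -0.25) in microglial nuclei had fitted values above 0, against 5 of 6 oligodendrocyte genes (median 0.23) and 6 of 6 other microglial markers (median 0.17). Of the 4 choroid plexus genes 1 was tested, Ttr, at 1.31 (SE 0.69, edgeR, adjusted p = 0.994), and of the 4 endothelial genes 1, at -0.10. Ribosomal protein genes in microglia summed to 2273 to 4455 CPM per control RE mouse and to 1988 to 7141 CPM per stress RE mouse. Mitochondrial RNA made 0.0662% to 0.114% of microglial UMIs in control RE and 0.0562% to 0.182% in stress RE. The part of all these in the counts of 20 of 23 and 15 of 16 was not tested. Cd68, a lysosomal membrane protein, had 0.79 (SE 0.31), and Cd9, a tetraspanin, 0.48 (SE 0.21), both with an adjusted p of 0.994 by edgeR. Of the 15 genes of the complement cascade and its soluble regulators, 2 were tested and 0 passed. Clu, which encodes clusterin, had 0.51 (SE 0.36) in stress RE against control RE, with an adjusted p of 0.994 by edgeR.

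Of 14 complement receptors and membrane regulators, 8 were tested and 0 passed, with medians of -0.04, -0.04 and -0.02. In stress RE against control RE, 4 of the 8 fitted values were above 0. The genes named next were picked for a small unadjusted p. Calr, a chaperone that C1q binds, had 0.57 (SE 0.22) in stress RE against control RE, and Cd46 -0.41 (SE 0.18) in stress RE against NP. Of 11 ligands and brakes of microglia, 8 were tested and 0 passed, with medians of -0.03, 0.05 and 0.03. Of 13 genes of Apoe receptors and lipid efflux, 9 were tested and 0 passed, with medians of 0.00, 0.02 and -0.04. Apod, an apolipoprotein, had 0.88 (SE 0.39) in stress RE against NP. Of 12 genes activated during tissue handling, 6 were tested and 0 passed, and their summed level had medians of 144, 145 and 165 CPM in the NP, control RE and stress RE groups. The part of this activation in the results was not tested.

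The C1q genes varied widely between mice within each group. The part of group in the relations below was not tested. The sum of the 3 chains in microglia ranged from 524 to 1832 CPM (3.50-fold) over the 15 mice. It ran from 587 to 1673 CPM in NP, 524 to 1238 in control RE and 597 to 1832 in stress RE mice. Its relation to 12 other measures was computed after the values had been seen, with 100000 permutations and Benjamini-Hochberg adjustment over the 12. It rose with Trem2 in the same nuclei (r = 0.903, permutation p = 1e-05, the smallest that was possible, adjusted 6e-05; rho = 0.896, p = 4e-05). Without the 2 mice farthest from the median of the C1q sum r was 0.886, and within batches 2 and 3 (6 mice each) it was 0.855 and 0.902; batch 1 had too few mice. With Tmem119 r was 0.834 (rho = 0.796, adjusted permutation p = 0.0003 and 0.00158), 0.840 without the 2 farthest mice, and 0.817 and 0.889 within batches.

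Yet the C1q sum was also related to measures in other cells. With Apoe in astrocytes r was 0.917 and rho 0.896 (adjusted permutation p = 6e-05 and 0.00024). Without the 2 farthest mice r was 0.860, and within batches 2 and 3 it was 0.952 and 0.971. With Apoe in oligodendrocytes r was 0.920 (rho = 0.864, adjusted permutation p = 8e-05 and 0.00024), 0.865 without the 2 farthest mice, and 0.922 and 0.987 within batches. With the summed CPM of 80 ribosomal protein genes in dentate granule neurons, r was 0.868 (rho = 0.818, adjusted permutation p = 0.000144 and 0.00084), 0.779 without the 2 farthest mice and 0.858 and 0.893 within batches. With the same genes in microglia r was 0.837 (rho = 0.771, adjusted permutation p = 0.00012 and 0.00242), 0.752 without the 2 farthest mice, and 0.892 and 0.877 within batches. Mice with more C1q in microglia also had more Apoe in astrocytes and more ribosomal protein RNA in neurons.

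Over all mice, r was lower for the homeostatic receptors and Itgam, but for Cx3cr1 it was high within batches. For Cx3cr1 r was 0.527 (rho = 0.5, adjusted permutation p = 0.0528 and 0.0802), 0.391 without the 2 farthest mice, and 0.911 and 0.955 within batches 2 and 3. For P2ry12 r was 0.591 (rho = 0.482, adjusted permutation p = 0.0331 and 0.0847), 0.579 without the 2 farthest mice, and 0.609 and 0.831 within batches. For Itgam r was 0.515 (rho = 0.521, adjusted permutation p = 0.0551 and 0.0723), 0.617 without the 2 farthest mice, and 0.638 and 0.371 within batches.

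The relation of the C1q sum to measures of the libraries is given next, and the values within batches rest on 6 mice each and were not tested. For the neuron genes in microglia r was -0.53 (rho = -0.40, adjusted permutation p = 0.0528 and 0.154), -0.35 without the 2 farthest mice, but -0.79 and -0.95 within batches 2 and 3. For the median UMIs per microglial nucleus r was -0.13 (rho = 0.014, adjusted permutation p = 0.646 and 0.964), 0.163 without the 2 farthest mice, and -0.67 and -0.57 within batches. For the percentage of mitochondrial UMIs r was 0.665 (rho = 0.671, adjusted permutation p = 0.00957 and 0.0134), 0.396 without the 2 farthest mice, and 0.945 and 0.695 within batches. The part of these measures in the C1q level was not tested.

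**Figure D4:**
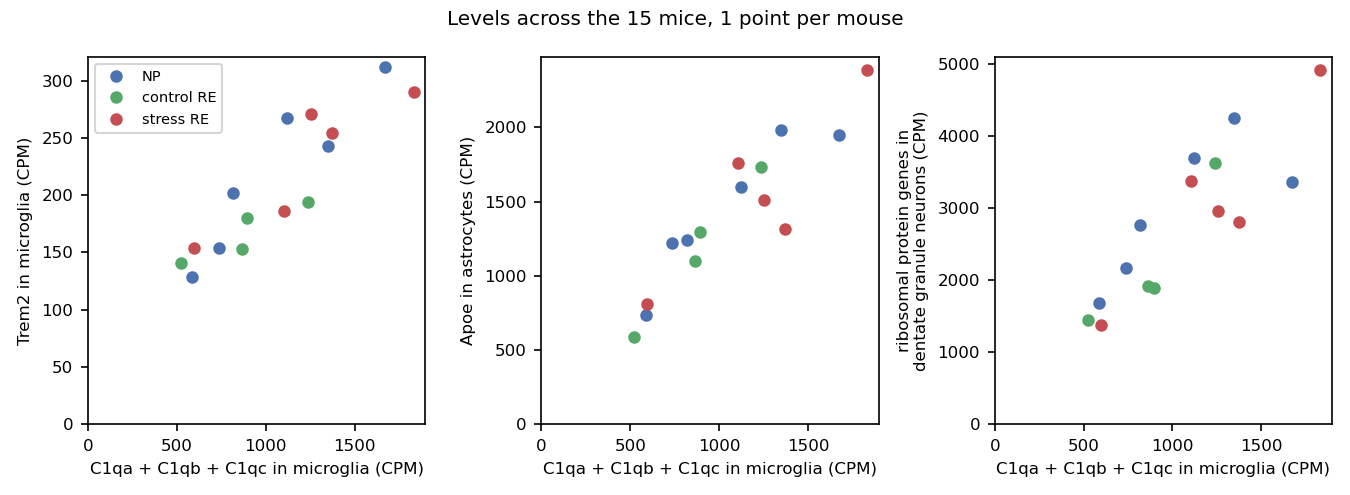
Summed C1q CPM in microglia (x axis) of each of the 15 mice against Trem2 in microglia, Apoe in astrocytes and ribosomal protein genes in dentate granule neurons (y axes, CPM), coloured by group. Each panel rises from the lowest to the highest C1q mouse (r = 0.903, 0.917 and 0.868), and the groups are mixed along it.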

How the data were processed

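Nuclei of dHF punches of 15 mice were profiled with droplet single-nucleus 3′ RNA sequencing. The authors deposited raw UMI counts per gene and barcode, made with Cell Ranger (7.1.0 in the submitters' processing notes, 7.0.0 in the file headers), without correction for free RNA. No other column was used. Removed were barcodes under 200 genes and those over 5% mitochondrial RNA. Doublets were removed as the barcodes with the highest Scrublet scores, in a number set by the barcode count (0.8% per 1000 barcodes). Nuclei were clustered with scanpy 1.11.5 (2000 variable genes without the 10 members, 30 components, 15 neighbours, Leiden resolution 1), and clusters were named by marker genes. The thresholds for names were set after the clusters were seen. The microglial cluster was clustered again with 1000 variable genes and 20 components.

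Counts were summed per mouse and class (at least 10 nuclei, at least 3 mice per group). The 3 groups were fitted together with edgeR 4.0.16 in R 4.3.3 (filterByExpr, TMM, quasi-likelihood test, Benjamini-Hochberg adjustment over all genes tested). DESeq2 1.42.0 was an alternative. Border macrophage contrasts with at least 2 mice per group, and values without the filter, were added after the data were seen. Each mouse is listed in the methods as one biological sample. Shares of nuclei and the Apoe ratio were compared by exact permutation tests. The edgeR script was tested on simulated data. The members and the gene lists were chosen with earlier results of these data known. Named list genes were the 2 with the smallest unadjusted p per list and contrast, and a subset of these is named. Likeness used genes with at least 50 CPM in a cluster. Wilson intervals on shares of nuclei cover counting error only. Intervals of 2 SE on fold changes also hold the spread between mice. The SE of an edgeR log2 fold change was its absolute value divided by the square root of the quasi-likelihood F statistic. Gene positions are of GENCODE models on GRCm38, and promoters are RefSeq. Some results on single genes are not reported here.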

Additional observations from a re-analysis of the deposited data

Results flagged for a closer look

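Of 47 groups of values checked for a single mouse far from the rest, 2 had one, where chance gives about 1 in 20. Itgam in border macrophages of NP mouse 31 was 226 CPM, against 141 to 161 CPM in the other 4 NP mice with enough nuclei. The border macrophage share of nuclei was 0.276% in stress RE mouse 90, against 0.0762% to 0.110% in the other 4 stress RE mice. The first rests on 12 nuclei and the second on 24.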

How the results depend on the processing

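With other settings than leaving out a mouse, the fold changes of the members kept their direction and their side of the threshold in 149 of 150 cases. The exception was C1qb in control RE against NP, at 0.0478 with batch as a term. The smallest adjusted p of any gene by edgeR was 0.625 in microglia and 0.576 in astrocytes. With values this far from the threshold, keeping to a side of it says little about how stable the fold changes were. DESeq2 called 11 genes in astrocytes for stress RE against control RE, none of them a member, where edgeR called 0. The border macrophage share in stress RE against control RE was -0.00682 on the log2 scale. Leaving out 1 mouse at a time, the number of genes called in microglia for stress RE against NP ranged from 0 to 4 (4 without NP mouse 37). Differences in percentage points ranged from -0.177 to 0.0989 (control RE minus NP) and -0.425 to 0.0129 (stress RE minus control RE) for microglia. For border macrophages they ranged from -0.0725 to -0.0444 (control RE minus NP, exact permutation p = 0.0159 without NP mouse 27), -0.0240 to 0.0259 (stress RE minus control RE) and -0.0797 to -0.0298 (stress RE minus NP, exact permutation p = 0.0286 without stress RE mouse 90). The log2 Apoe ratio ranged from -0.208 to 0.292 in control RE minus NP and from -0.0622 to 0.438 in stress RE minus NP. Log2 fold changes whose sign turned were C1qc (-0.264 to 0.0361), Cx3cr1 (-0.14 to 0.0905), P2ry12 (-0.0947 to 0.0409) and Itgam (-0.00427 to 0.11) in control RE against NP, and Trem2 (-0.0318 to 0.20), Tmem119 (-0.18 to 0.0110), Apoe in microglia (-0.22 to 0.58) and Apoe in astrocytes (-0.0817 to 0.24) in stress RE against NP. Where values turned, the cause was not tested. Without 1 control RE mouse, border macrophages had 2 mice in that group and were not tested. No paired analysis was possible because mouse numbers are not shared between groups. Thinning moved the share of nuclei with a UMI beyond its interval in 29 of 30 cases. With at least 2 mice per group, added after the data were seen, edgeR called 0 genes in border macrophages in stress RE against control RE and against NP. C3 is too rarely counted for any group comparison.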
